A study of Mus musculus with 6 samples.

Results

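The 60 mitosis and G2 genes described here code for the proteins that take a cell from the end of DNA replication through chromosome segregation and cell division. They were taken by symbol from a table of 38720 rows, and all 60 were found. They were grouped by function, and the grouping sets no threshold on a measured value. RNA was measured in the neck region of the mouse stomach corpus, isolated by laser capture microdissection of frozen tissue, in 3 wild-type libraries (CLDN18+/+) and 3 Cldn18 knockout libraries (CLDN18-/-). Claudin 18 sits in the tight junctions that seal the stomach epithelium. All 6 libraries were of the B6:129S5 strain, and no treatment is named for either group. The sample labels give an age of 7 weeks and the design text of the series 7 days, and no choice between them is made here. The sources used here do not give the deleted part of the gene, the number of animals or sections behind a library, or say that each library is another animal. The p-values therefore cover the spread among these libraries alone, which could be technical.

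In the gastric corpus, dividing cells lie mainly in the isthmus, close to the neck, while parietal, chief and pit cells divide little. Entry into mitosis is driven by cyclin A and cyclin B bound to the kinase CDK1, which CDC25 phosphatases activate. Aurora and polo-like kinases then build the spindle, kinetochores attach chromosomes to microtubules, and the spindle checkpoint holds back the anaphase-promoting complex (APC/C) until attachment is complete. The APC/C with CDC20 then marks cyclin B and securin for destruction, which frees separase to cut cohesin. Many of these genes are transcribed late in the cell cycle. Their promoters often carry a cell cycle genes homology region (CHR), which binds the MuvB core of the repressor DREAM and of the activator with B-MYB and FOXM1, and CCAAT boxes, which bind NF-Y.

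Of the 60 genes, 59 were higher in the knockout and 1, Pttg1, which codes for securin, was lower. The call was a limma adjusted p under 0.05. Over the 17432 genes tested, 23.3% were called higher and 21.5% lower, so the share of the 60 called higher lay far above the background. The 60 genes were chosen with earlier results of these data known, so this comparison is a description. All 60 genes passed the filter on low values. For 59 genes the 3 knockout values lay wholly above the 3 wild-type values, as they did for 28.1% of all genes tested, and for Pttg1 they lay wholly below, as for 27.1% of genes. The median log2 difference of the 60 genes (knockout minus wild-type, where 1 is a 2-fold change) was 1.54, a fold of 2.90, with quartiles of 1.32 and 1.66. The median over all genes tested was -0.02, with quartiles of -0.71 and 0.57. The bulk values do not separate the share of dividing cells from the RNA in each. For a rise, more cells of a type and more RNA per cell cannot be told apart. For a fall, fewer cells of a type and less RNA per cell cannot be told apart either.

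The libraries held 37673283 to 52842813 reads on genes, and each of the 60 genes had 46 to 21347 reads in each library, so no value rested on a handful of reads. A single locus, Gm26924, took 38.6% to 45.4% of reads. The share of reads on processed pseudogenes was 0.150%, 1.10% and 0.549% for wild-type libraries 1, 2 and 3 and 0.110% to 0.126% for knockout libraries, so results are also given without wild-type libraries 2 and 3. That fit, added after the values were seen, leaves 1 wild-type library, and its spread is taken to equal that between knockout libraries. Mitochondrial genes took 3.77%, 3.28% and 4.28% of reads in wild-type libraries 1, 2 and 3 and 1.38%, 1.56% and 1.25% in knockout libraries, without overlap, and the part of this difference in the results was not tested. Cldn18 itself (ENSMUSG00000032473.13; chromosome 9 from 99689461 to 99717267, mm10, minus strand) had 30498, 21210.1 and 23241 normalized counts in wild-type libraries against 13035, 16798 and 15818 in knockout libraries (log2 difference -0.71 ± 0.20 SE, limma adjusted p = 0.0134). Without Cldn18 knockout replicate 1 that call was lost (adjusted p = 0.0896). All 6 listed markers of neck cells were read in every library. Muc6, a mucin, had 31601, 27172 and 33951 in wild-type against 9220.5, 13049.7 and 6917 in knockout libraries and was the single neck marker called lower. Dmbt1, a secreted glycoprotein, had 2528, 2693 and 1989 in wild-type against 32296, 32692 and 24296 in knockout libraries, and Cftr, a chloride channel, had 30.6, 53.1 and 72.8 in wild-type against 2104, 1531 and 1005 in knockout libraries, and both were called higher. Markers of parietal, chief and pit cells were read in all 3 wild-type libraries as well. Across wild-type libraries the neck markers summed to 76527 to 98954 normalized counts. Parietal markers summed to 518223 to 674435 there, chief markers to 1812903 to 3011520 and pit markers to 883110 to 1497191. The lists differ in length and in genes.

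Promoter windows were taken from RefSeq (GRCm38.p6), running from 250 bases before to 50 bases after each start, and 50 of the 60 genes had at least 1. The 7 below are shown because they hold the shared letters, or lack some or all of them, in genes that the results turn on. They run from 170 bases before the RefSeq start to at most 30 after it, or end 30 bases past an earlier GENCODE start. Capitals mark CHR letters (TTTGAA or TTCGAA) and CCAAT boxes, on either strand. Ccnb1 (cyclin B1) lies at chr13:100786541-100786656, minus strand. Ccnb2 (cyclin B2) is read from chr9:70421525-70421724, minus strand. The Cdk1 stretch is chr10:69352909-69353082, minus strand. Ube2c, the ubiquitin-conjugating enzyme that works with the APC/C, is shown at chr2:164769759-164769927, plus strand. Cdc20 is at chr4:118437323-118437513, minus strand. The stretch of Kif23, a kinesin of the central spindle, is chr9:61946770-61946969, minus strand. Mybl2, which codes for B-MYB, is at chr2:163054465-163054664, plus strand.
Ccnb1: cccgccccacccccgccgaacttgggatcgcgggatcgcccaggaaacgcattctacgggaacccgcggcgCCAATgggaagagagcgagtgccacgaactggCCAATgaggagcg
Ccnb2: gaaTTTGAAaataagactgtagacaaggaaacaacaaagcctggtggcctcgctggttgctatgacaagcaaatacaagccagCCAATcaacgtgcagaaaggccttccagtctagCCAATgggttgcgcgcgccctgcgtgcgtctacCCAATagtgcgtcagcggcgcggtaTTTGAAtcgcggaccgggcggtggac
Cdk1: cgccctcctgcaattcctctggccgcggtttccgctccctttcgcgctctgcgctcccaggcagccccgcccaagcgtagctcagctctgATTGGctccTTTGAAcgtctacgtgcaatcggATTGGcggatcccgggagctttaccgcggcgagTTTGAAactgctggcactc
Ube2c: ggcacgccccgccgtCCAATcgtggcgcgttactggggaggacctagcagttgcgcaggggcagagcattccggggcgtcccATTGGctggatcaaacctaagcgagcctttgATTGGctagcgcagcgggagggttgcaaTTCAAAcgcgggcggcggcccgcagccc
Cdc20: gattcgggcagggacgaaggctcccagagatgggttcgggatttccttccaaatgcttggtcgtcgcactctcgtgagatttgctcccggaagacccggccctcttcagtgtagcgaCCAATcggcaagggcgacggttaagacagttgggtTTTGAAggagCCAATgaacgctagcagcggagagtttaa
Kif23: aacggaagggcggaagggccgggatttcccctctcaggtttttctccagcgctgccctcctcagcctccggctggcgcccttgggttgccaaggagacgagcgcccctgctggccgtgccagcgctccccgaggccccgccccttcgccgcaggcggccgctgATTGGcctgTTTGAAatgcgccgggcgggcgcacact
Mybl2: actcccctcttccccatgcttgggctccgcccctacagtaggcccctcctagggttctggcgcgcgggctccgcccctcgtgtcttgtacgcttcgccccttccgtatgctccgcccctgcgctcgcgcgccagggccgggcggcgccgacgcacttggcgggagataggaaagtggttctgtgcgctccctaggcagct

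Within the printed stretches, Ccnb2 and Cdk1 held 2 CHR matches each. Ube2c, Cdc20 and Kif23 held 1 each, and Ccnb1 and Mybl2 none. CCAAT boxes numbered 3 in Ccnb2 and Ube2c, 2 in Ccnb1, Cdk1 and Cdc20, 1 in Kif23 and none in Mybl2. The whole window of Mybl2, the gene with the largest log2 difference of the 60, held neither motif. That window ends before the GENCODE start of the gene, so bases after that start were not searched.

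Across the 50 genes with a window, 40 (80.0%) held a CHR match, against 16.6% of the 11600 tested genes with a window and 21.7% of all 27025 genes with a window. CCAAT boxes were in 36 (72.0%), against 42.2% of tested genes and 41.1% of all. A total of 34 genes (68.0%) held both, against 8.05% of tested genes and 9.65% of all. The E2F letters searched (TTTCCCGC, TTTCGCGC, TTTGCCGC and TTTGGCGC, either strand) were in 4 of the 50 (8.0%), against 4.24% of tested genes and 2.6% of all. Only these exact letters were counted, so a gene without them may still hold an E2F site with other letters. Of the 40 S phase genes with a window, 8 (20.0%) held CHR letters, 25 (62.5%) a CCAAT box and 16 (40.0%) E2F letters. Kinesins for transport inside the cell, which share the motor fold with the mitotic kinesins, held CHR letters in 3 of 21 windows (14.3%). These shares describe letters in a window, and no binding was measured.

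The matches clustered by position. CHR letters began within the 50 bases after the start in 48.1% of the 52 windows of these genes, against 2.46% of the 32851 windows in all, and within the 50 bases before it in 26.9% against 2.97%. CCAAT boxes began within the 50 bases before the start in 48.1% against 9.03%. They began in the next 50 bases upstream in 40.4% against 12.5%. At least 2 CCAAT boxes were in 24 of the 50 genes, against 13.3% of all genes. Neighbouring boxes began 30 to 36 bases apart in 10 of 47 pairs, a count with no share over all genes beside it. In 1 place a CHR and a CCAAT match shared a base. The genes with no CHR letters in the window were Ccnb1, Mybl2, Plk4, Nusap1, Birc5, Mad2l1, Cenpe, Nuf2, Ncaph and Pttg1.

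**Figure D1:**
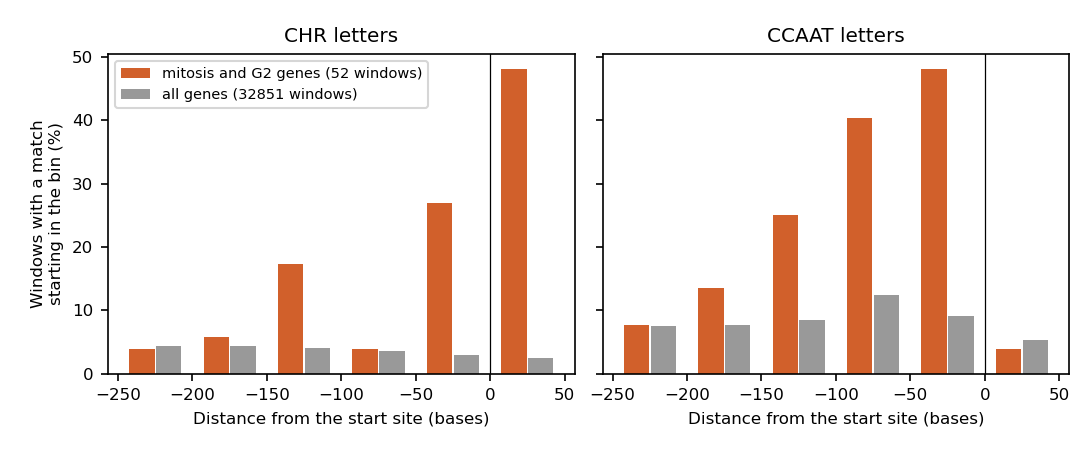
Share of promoter windows (y axis, percent) in which a CHR (left) or CCAAT (right) match begins in each 50-base bin, by distance from the RefSeq start (x axis, bases), for mitosis and G2 genes (orange) and all genes (grey). CHR matches of the mitosis and G2 genes stand highest just after the start (48.1%), and CCAAT matches in the 100 bases before it (40.4% and 48.1% in its 2 bins).

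The size of the rise did not separate genes with these letters from genes without them. The median log2 difference was 1.51 in the 40 genes with CHR letters (0.68 to 1.92) and 1.59 in the 10 without (-0.86 to 2.11). It was 1.53 in the 36 genes with a CCAAT box and 1.49 in the 14 without. With E2F letters it was 1.43, in 4 genes alone, and without them 1.53 in 46. These are descriptions with no test. Pttg1 held none of the 3 motifs in its window. That window starts downstream of the GENCODE start of the gene at 43426251, so bases before that start were not searched. Mybl2, also among the 10 genes without CHR letters, had a window that ended before its GENCODE start. For 43 of the 50 genes the RefSeq start lay within 50 bases of a GENCODE start of a protein-coding transcript.

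**Figure D2:**
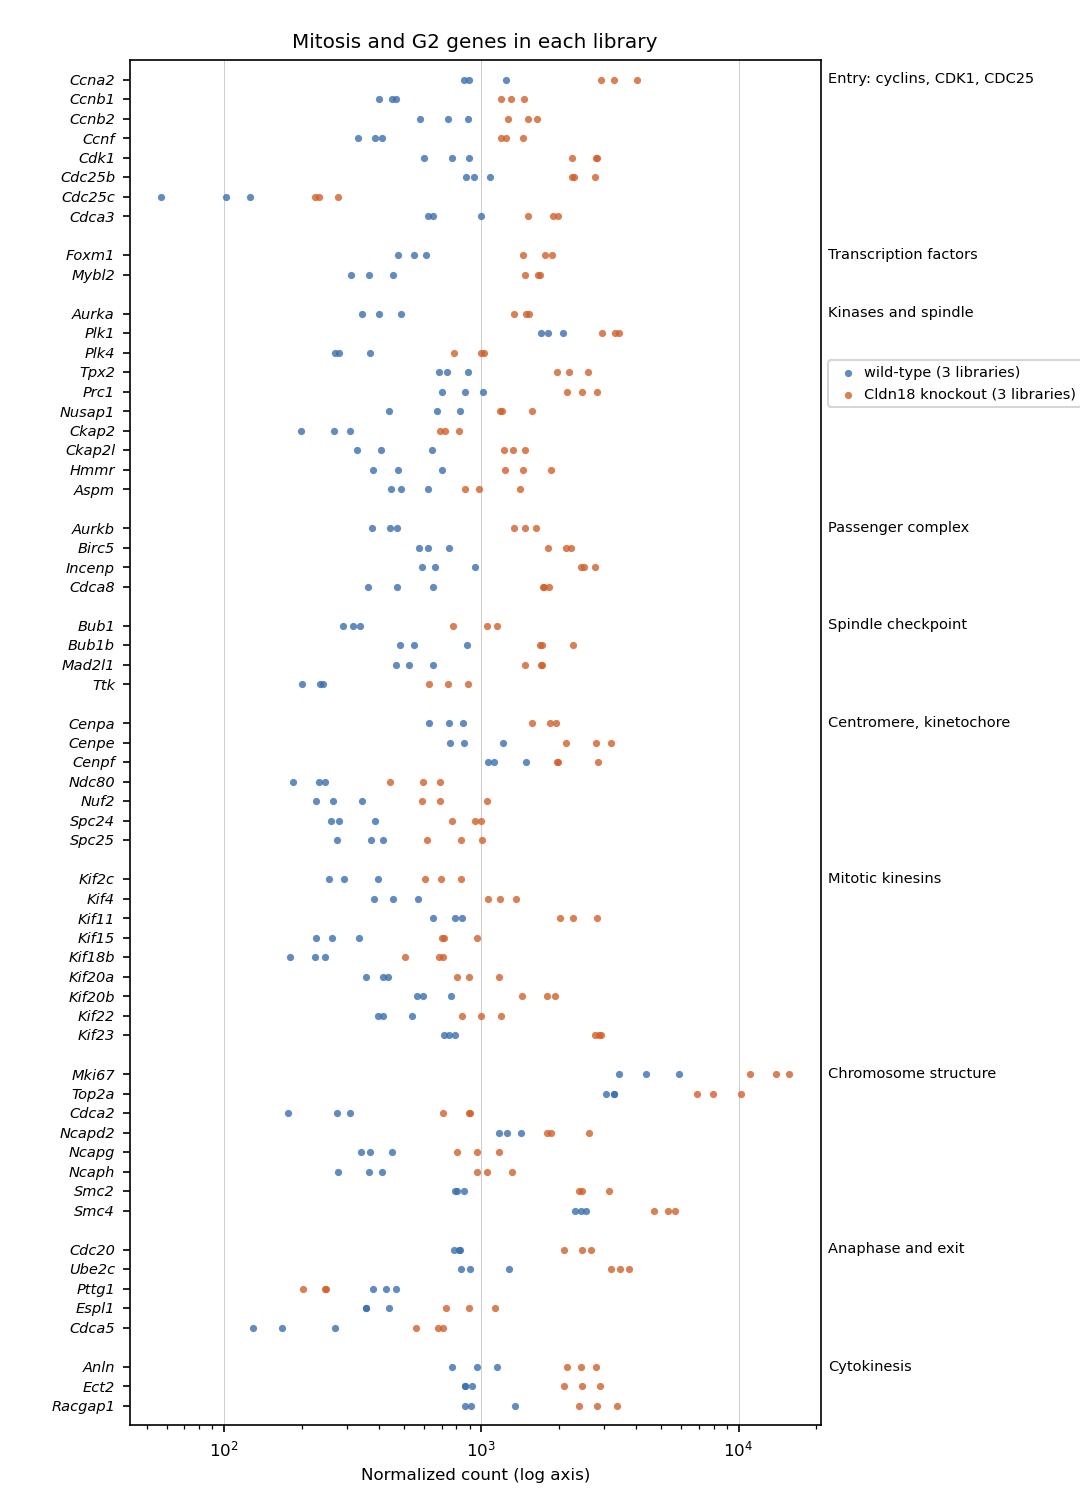
Normalized counts (x axis, log scale) of the 60 mitosis and G2 genes in each library, by role, with 3 wild-type points (blue) and 3 Cldn18 knockout points (orange) a gene. The orange points lie to the right of the blue ones in 59 rows and to the left in the row of Pttg1.

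All 8 genes of mitotic entry were higher in the knockout, with a median log2 difference of 1.51. Cdk1, the kinase that drives entry, had 898, 598 and 772 normalized counts in wild-type libraries against 2823, 2781 and 2256 in knockout libraries. Its mean rose from 756 ± 151 to 2620.1 ± 316 (SD, n = 3), a log2 difference of 1.80 ± 0.18 (SE, limma adjusted p = 2.46e-05). The knockout values lay well apart from the wild-type values. Ccna2, cyclin A2, which partners CDK1 and CDK2, had 1251, 855 and 896 normalized counts in wild-type libraries against 3287, 4031 and 2928 in knockout libraries (log2 difference 1.78 ± 0.18 SE, adjusted p = 3.41e-05). Ccnb1, the main mitotic cyclin, had 468, 401 and 451 normalized counts in wild-type libraries against 1301, 1459 and 1198 in knockout libraries (log2 difference 1.58 ± 0.15, adjusted p = 2.19e-05). Ccnb2, its close relative, rose least of the 8, with 884, 739.7 and 575 normalized counts in wild-type libraries against 1519, 1643 and 1269.7 in knockout libraries (log2 difference 1.02 ± 0.18, adjusted p = 0.0012). The ratio of Ccnb1 to Ccnb2 was 0.529, 0.543 and 0.784 across wild-type libraries and 0.857, 0.888 and 0.943 across knockout libraries, so these ratios did not overlap either. Ratios given here were chosen after the values were seen and are descriptions, with no test.

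The activating phosphatases of CDK1 rose as well. Cdc25b, which starts CDK1 activation, had 1083, 932 and 869 normalized counts in wild-type libraries against 2249, 2779 and 2288 in knockout libraries (log2 difference 1.34 ± 0.15 SE). Cdc25c, which amplifies it, was the least abundant of the 60 genes per base in wild-type, with 126, 56.8 and 102 in wild-type against 234, 277 and 225 in knockout libraries (log2 difference 1.43 ± 0.31 SE, limma adjusted p = 0.0037). Wild-type library 2 was low for this gene, and the standard error was the largest of the 60. Ccnf, the F-box protein of a ubiquitin ligase that limits mitotic factors, had 411, 331 and 385 in wild-type against 1251, 1449 and 1193 in knockout libraries (log2 difference 1.79 ± 0.16). Cdca3, an F-box-like trigger of mitotic entry, had 999, 619 and 649.6 in wild-type against 1984, 1893 and 1518 in knockout libraries (log2 difference 1.27 ± 0.20), with wild-type library 1 above the other 2.

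The pair of transcription factors that act on late cell cycle promoters rose, and Mybl2 had the largest log2 difference of all 60 genes. Mybl2 (ENSMUSG00000017861.11; chromosome 2 from 163054687 to 163084688, mm10, plus strand) had 312, 452 and 364 normalized counts in wild-type libraries against 1695, 1666 and 1479 in knockout libraries. Its mean went from 376 ± 70.7 to 1613 ± 117 (SD, n = 3), a log2 difference of 2.11 ± 0.17 (SE) and a fold of 4.32 (limma adjusted p = 7.24e-06). Wild-type library 2, the lowest of its group for 33 of the 60 genes, was the highest for this gene. Foxm1, a forkhead factor that joins the same promoters in G2, had 611, 473 and 549 normalized counts in wild-type libraries against 1774, 1881 and 1450.4 in knockout libraries (log2 difference 1.64 ± 0.16, adjusted p = 2.72e-05).

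Of 23 genes listed for the surrounding machinery (RB family, E2F, MuvB, MYB and NF-Y), 14 were higher, 3 lower and 6 not called, with a median log2 difference of 0.73. The shares over all genes tested were 23.3% higher and 21.5% lower. The atypical repressors E2f7 and E2f8 rose most, with log2 differences of 2.35 ± 0.28 and 2.19 ± 0.16 (SE). Of the MuvB subunits, Lin54, which contacts CHR DNA, had 446, 738 and 585 in wild-type against 1195, 1112 and 1031 in knockout libraries (log2 difference 0.94 ± 0.19, limma adjusted p = 0.00245). Lin37 had 258, 426 and 292 in wild-type against 254, 246 and 271 in knockout libraries and was not called (log2 difference -0.31 ± 0.22). The pocket proteins of DREAM moved apart: Rbl1 (p107) rose by 1.38 ± 0.17 on the log2 scale (adjusted p = 0.000124), and Rbl2 (p130), which prevails in resting cells, had a log2 difference of -1.19 ± 0.17 (adjusted p = 0.000278). Its values were 1628, 1678 and 1541 in wild-type against 599.7, 890.2 and 662 in knockout libraries. Tfdp2, a partner of E2F proteins, was also lower (log2 difference -1.62 ± 0.16). Mybl1 (A-MYB) had 104, 603 and 288 in wild-type against 85, 76.8 and 79.8 in knockout libraries, and its lower call was lost without wild-type libraries 2 and 3 (adjusted p = 0.460), without wild-type replicate 3 (0.0745), without knockout replicate 2 (0.0560) or 3 (0.0518), and in the authors' deposited table (0.266). Lin54, Lin37, Rbl1 and Rbl2 were named after their values were seen.

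All 10 genes of spindle kinases and spindle assembly rose, with a median log2 difference of 1.55. Aurka, Aurora A, the kinase of centrosomes and spindle poles, had 488, 342 and 401 normalized counts in wild-type libraries against 1490.3, 1526 and 1345.6 in knockout libraries. The rise of 1.84 ± 0.17 on the log2 scale (SE, limma adjusted p = 1.64e-05) was the largest of the 10. Tpx2, which activates Aurora A on the spindle, had 887, 732 and 685 in wild-type against 2201, 2594 and 1966 in knockout libraries (log2 difference 1.55 ± 0.16). Plk1 (ENSMUSG00000030867.7; chromosome 7 from 122159439 to 122169873, mm10, plus strand), the polo-like kinase that acts from entry to cytokinesis, rose least of the 10, with 2071, 1823 and 1705 normalized counts in wild-type libraries against 3308, 3419 and 2953 in knockout libraries. Its mean went from 1866 ± 187 to 3227 ± 244 (SD, n = 3), a log2 difference of 0.79 ± 0.14 (SE, adjusted p = 0.000949). The ratio of Plk1 to Aurka was 4.24, 5.33 and 4.25 across wild-type libraries and 2.22, 2.24 and 2.19 across knockout libraries. The knockout ratios were nearly alike and all below the wild-type ratios. Plk4, the kinase of centriole duplication, had 269, 280.3 and 370.0 in wild-type against 994, 1026 and 781 in knockout libraries (log2 difference 1.61 ± 0.19), a larger fitted rise than that of Plk1; the difference between the genes was not tested.

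Among the microtubule proteins, Prc1, which bundles the central spindle, had 1012, 704 and 865 in wild-type against 2454, 2821 and 2149 in knockout libraries (log2 difference 1.53 ± 0.17 SE). Ckap2, Ckap2l and Hmmr, which bind spindle microtubules or poles, rose by 1.54, 1.60 and 1.57 on the log2 scale. Nusap1, a microtubule stabiliser near chromosomes, had 824, 436 and 671 in wild-type against 1205, 1577 and 1180.3 in knockout libraries (log2 difference 1.07 ± 0.23). Aspm, a spindle pole protein, had 621, 445 and 486 in wild-type against 979, 1419 and 860.2 in knockout libraries (log2 difference 1.05 ± 0.21, limma adjusted p = 0.00232). Knockout library 2 stood above the other 2 for Aspm. The call of Aspm was lost when wild-type libraries 2 and 3 were left out (0.77 on the log2 scale, adjusted p = 0.0634).

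The chromosomal passenger complex, which corrects faulty attachments at the centromere and later moves to the midzone, rose in all 4 subunits, with a median log2 difference of 1.82. Aurkb, its kinase Aurora B, had 469, 375 and 441 normalized counts in wild-type libraries against 1472, 1637 and 1341 in knockout libraries (log2 difference 1.79 ± 0.16 SE, limma adjusted p = 1.22e-05). Incenp, its scaffold, had 941, 587 and 660.3 in wild-type against 2448, 2757 and 2502 in knockout libraries (log2 difference 1.84 ± 0.18). Cdca8, which codes for borealin, had 646, 363 and 469 in wild-type against 1836, 1735 and 1759 in knockout libraries (log2 difference 1.89 ± 0.20). Birc5, which codes for survivin, had 747, 574 and 619 in wild-type against 2226, 2125 and 1817 in knockout libraries (log2 difference 1.67 ± 0.15). The knockout libraries differed little from each other for Cdca8. Ratios of subunits overlapped between groups: Birc5 to Aurkb was 1.40 to 1.59 across wild-type libraries and 1.30 to 1.51 across knockout libraries, with knockout libraries 2 and 3 below all 3 wild-type libraries. The ratios of Incenp and Cdca8 to Aurkb overlapped too. These overlaps are descriptions of 3 libraries a group and do not show equal change.

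The 4 genes of the spindle assembly checkpoint rose, with a median log2 difference of 1.62 and a narrow range of 1.60 to 1.72. Ttk, the kinase MPS1 that starts the signal, had 235, 243 and 201 normalized counts in wild-type libraries against 739, 888 and 629 in knockout libraries (log2 difference 1.72 ± 0.19 SE, limma adjusted p = 5.4e-05). Bub1, a kinase that recruits the later parts, had 318, 290.2 and 339 in wild-type against 1056, 1147 and 776 in knockout libraries (log2 difference 1.63 ± 0.18). Bub1b, which codes for BUBR1 of the inhibitor of the APC/C, had 878, 482 and 548 in wild-type against 1725, 2264 and 1694 in knockout libraries (log2 difference 1.61 ± 0.22). Mad2l1, which codes for MAD2, had 648, 464 and 523 in wild-type against 1708, 1728 and 1481 in knockout libraries (log2 difference 1.60 ± 0.16). No value of any of the 4 genes overlapped between groups.

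The 7 genes of centromere and kinetochore rose with a smaller median, 1.36. Cenpa, the histone H3 variant that marks centromeres, had 846, 627 and 749 normalized counts in wild-type libraries against 1854, 1953 and 1575 in knockout libraries (log2 difference 1.28 ± 0.16 SE, limma adjusted p = 0.000123). The NDC80 complex, which holds microtubules, rose in all 4 subunits. Spc24 had 384, 279 and 260.2 in wild-type against 994, 948 and 769 in knockout libraries (log2 difference 1.56 ± 0.20), and Spc25, Ndc80 and Nuf2 rose by 1.20, 1.36 and 1.45 on the log2 scale. Cenpe, a motor that carries chromosomes to the spindle middle, had 1212, 755 and 857 in wild-type against 2788, 3180.4 and 2129 in knockout libraries (log2 difference 1.53 ± 0.20). Cenpf, a large protein of the outer kinetochore, rose least, with 1496, 1066 and 1122 in wild-type against 1986, 2838 and 1976 in knockout libraries (log2 difference 0.88 ± 0.19, adjusted p = 0.00332). Its knockout libraries 1 and 3 stood less than 1.5 times above the highest wild-type library. With wild-type libraries 2 and 3 left out, Cenpf was no longer called (0.58 on the log2 scale, limma adjusted p = 0.0884).

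All 9 mitotic kinesins rose, by log2 differences of 1.16 to 1.92. Kif23 (ENSMUSG00000032254.10; chromosome 9 from 61915905 to 61946774, mm10, minus strand), the motor of centralspindlin, had 787, 751 and 717 normalized counts in wild-type libraries against 2864, 2911 and 2766 in knockout libraries. Its mean went from 751 ± 35.2 to 2847 ± 73.7 (SD, n = 3). Its log2 difference of 1.92 ± 0.13 (SE) had the smallest adjusted p of the 60 genes (1.95e-06, limma). Its lowest knockout library stood 3.51 times above its highest wild-type library, the widest such gap of the 59 genes that rose. Kif11, which pushes spindle poles apart, had 839.7, 648 and 793 in wild-type against 2279.9, 2817 and 2015 in knockout libraries (log2 difference 1.63 ± 0.17). Kif15, which can share that task, had 262, 227 and 335 in wild-type against 718, 962 and 702 in knockout libraries (log2 difference 1.53 ± 0.20). Kif22, a chromosome-binding kinesin, rose least of the 9, with 539, 414 and 397 in wild-type against 997, 1192 and 842 in knockout libraries (log2 difference 1.16 ± 0.19). Kif4, the chromokinesin on the X chromosome, had 382, 569 and 455 in wild-type against 1178, 1365 and 1060.1 in knockout libraries (log2 difference 1.37 ± 0.18). Kif2c, which takes microtubules apart at centromeres, had 293, 395 and 255 in wild-type against 606, 830.4 and 698 in knockout libraries (log2 difference 1.19 ± 0.21). Kif18b, Kif20a and Kif20b rose by 1.53, 1.24 and 1.43 on the log2 scale.

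Kinesins that move cargo outside mitosis did not follow. Of 27 tested, 5 were higher, 11 lower and 11 not called, with a median log2 difference of -0.51. Over all genes tested, 23.3% were called higher and 21.5% lower. The largest fall by the rule for named genes was Kifc2 (log2 difference -2.17 ± 0.28 SE, limma adjusted p = 0.000141), and the largest rise was Kif5c (2.19 ± 0.28).

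**Figure D3:**
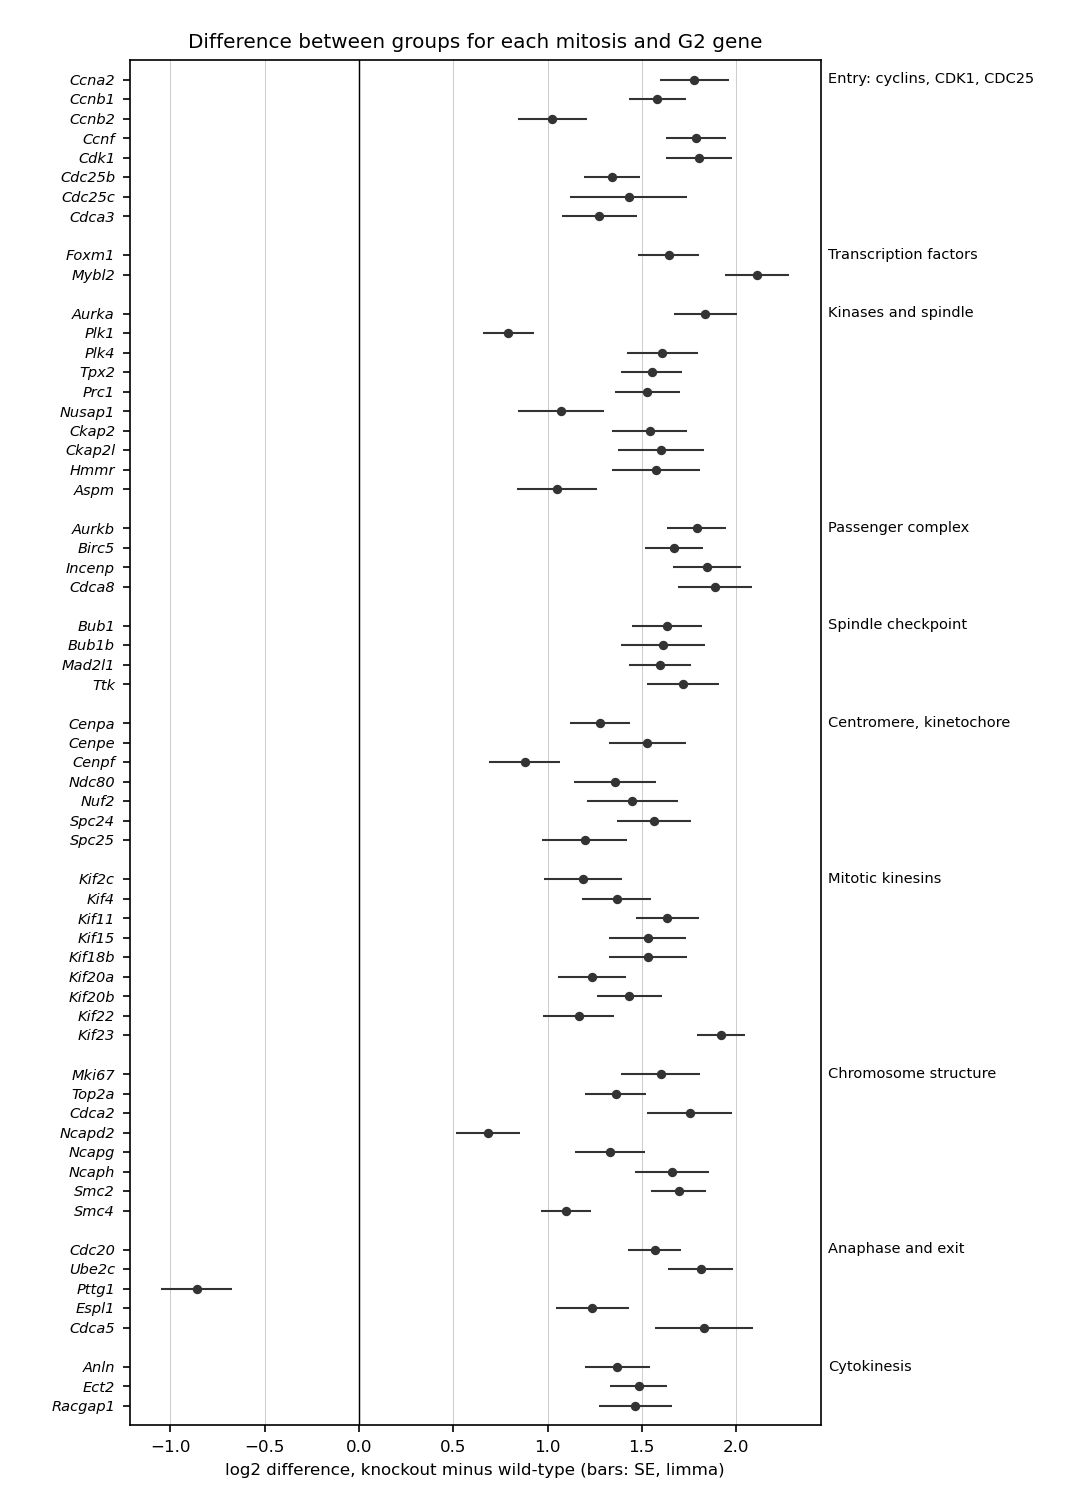
log2 difference (x axis, knockout minus wild-type) of the 60 genes from limma on log2(normalized count + 1), by role, with bars of 1 SE. Mybl2 stands farthest right (2.11), Pttg1 alone left of 0 (-0.86), and Ncapd2 (0.68), Plk1 (0.79) and Cenpf (0.88) are the rising genes below 1.

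All 8 genes of chromosome structure rose, with a median log2 difference of 1.48. Mki67, which codes for the Ki-67 coat of mitotic chromosomes and is a common proliferation marker, had 5851, 3429 and 4373 normalized counts in wild-type libraries against 13979, 15771 and 11083 in knockout libraries (log2 difference 1.60 ± 0.21 SE, limma adjusted p = 0.000178). Top2a, the topoisomerase that untangles sister chromatids, had 3293, 3276 and 3044 in wild-type against 7969, 10184 and 6865 in knockout libraries (log2 difference 1.36 ± 0.16). Cdca2, which brings a phosphatase to chromatin at mitotic exit, had 307, 177 and 275 in wild-type against 906, 899 and 707 in knockout libraries (log2 difference 1.75 ± 0.23), the largest of the 8. Smc2 and Smc4, the ATPases common to both condensins, rose by 1.70 ± 0.15 and 1.10 ± 0.13 (SE). The subunits particular to condensin I differed in size: Ncaph rose by 1.66 ± 0.19, Ncapg by 1.33 ± 0.19 and Ncapd2 by 0.68 ± 0.17. Ncapd2 (ENSMUSG00000038252.13; chromosome 6 from 125168007 to 125191701, mm10, minus strand) had 1258, 1426 and 1175 normalized counts in wild-type libraries against 1863, 2612 and 1801 in knockout libraries, the smallest rise of the 59 (adjusted p = 0.00737). Its lowest knockout library stood 1.26 times above its highest wild-type library, the narrowest gap of the 59. The ratio of Ncapd2 to Smc2 was 1.47, 1.77 and 1.49 across wild-type libraries and 0.758, 0.830 and 0.749 across knockout libraries, without overlap. Exons of Ncapd2 share bases with Scarna10 and Gm28967 on the same strand, and how reads there were divided was not tested.

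Of the 5 genes of anaphase and mitotic exit, 4 rose and Pttg1 fell. Pttg1 (ENSMUSG00000020415.16; chromosome 11 from 43420250 to 43426251, mm10, minus strand) codes for securin, the inhibitor that holds separase until anaphase. It had 465, 425 and 378 normalized counts in wild-type libraries against 246, 203 and 248 in knockout libraries, so that each knockout library lay below each wild-type library. Its mean went from 423 ± 43.8 to 233 ± 25.5 (SD, n = 3), a log2 difference of -0.86 ± 0.19 (SE; 95% interval -1.28 to -0.44; limma adjusted p = 0.00393). Espl1, which codes for separase, went the other way, with 438, 356 and 355 in wild-type against 894, 1125 and 726 in knockout libraries (log2 difference 1.24 ± 0.19). The ratio of Pttg1 to Espl1 was 1.06, 1.19 and 1.06 across wild-type libraries and 0.276, 0.181 and 0.342 across knockout libraries. Cdc20, the APC/C activator that targets securin and cyclin B, had 818, 822 and 782 in wild-type against 2453, 2674 and 2093 in knockout libraries (log2 difference 1.57 ± 0.14). The ratio of Pttg1 to Cdc20 was 0.483 to 0.569 across wild-type libraries and 0.0760 to 0.118 across knockout libraries.

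Ube2c had 1275, 901 and 837 normalized counts in wild-type libraries against 3761, 3474 and 3197 in knockout libraries (log2 difference 1.81 ± 0.17 SE, limma adjusted p = 2.19e-05). Cdca5, which codes for sororin, the protector of cohesin, had 271, 129.7 and 168 in wild-type against 676, 711 and 557 in knockout libraries (log2 difference 1.83 ± 0.26), and wild-type library 1 stood above the other 2. Both lay above the upper quartile of the 60 log2 differences, while Pttg1 was the single gene called lower. The lower call of Pttg1 held in each of the 18 other settings, with log2 differences of -0.77 to -1.003. Pttg1 shares no exonic bases with another annotated gene. Protein was not measured here, and securin protein is controlled by destruction as well as by its RNA.

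The 3 genes of cytokinesis rose, with a median log2 difference of 1.47. Ect2, the exchange factor that activates RhoA at the cleavage plane, had 918, 867 and 861 normalized counts in wild-type libraries against 2473, 2898 and 2094 in knockout libraries (log2 difference 1.48 ± 0.15 SE, limma adjusted p = 3.19e-05). Racgap1, the partner of Kif23 in centralspindlin, had 1352.6, 915 and 864 in wild-type against 2811, 3360.0 and 2394 in knockout libraries (log2 difference 1.47 ± 0.20). Anln, which codes for the ring scaffold anillin, had 769.9, 1149.7 and 958 in wild-type against 2443, 2781 and 2161 in knockout libraries (log2 difference 1.37 ± 0.17). Wild-type library 1 was the lowest wild-type library for Anln and the highest for Ect2 and Racgap1.

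Most of the rises lay within a narrow range. Role medians of the log2 difference ran from 1.36 for centromere and kinetochore to 1.88 for the pair of transcription factors. Of the 60 genes, 56 were higher by a log2 difference of at least 1, against 11.2% of all genes tested. A log2 difference of at least 1.5 was reached by 34, a count with no share over all genes beside it. The 95th percentile of all genes tested was 1.61. The 3 rising genes below 1 were Ncapd2, Plk1 and Cenpf. Adjusted p-values of the 60 genes ran from 1.95e-06 to 0.00737 (limma). Between the wild-type level and the log2 difference, Spearman's rho was -0.17 across the 60 genes, which share their libraries. Pearson's r on log2 levels was -0.14, and both are descriptions. The log2 difference contains the wild-type level with a minus sign, so neither value shows how level relates to the rise. The median coefficient of variation between replicates was 17.9% in wild-type and 13.9% in the knockout.

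The authors' deposited table, their own comparison of the groups, also had 59 of the 60 genes higher and Pttg1 lower at its adjusted p, against 13.4% and 9.31% of its 21742 genes with a p-value. edgeR on the recovered reads called the same numbers, 59 higher and 1 lower, against 24.8% and 21.4% of all genes. DESeq2 on those reads also called 59 higher and 1 lower, against 22.7% and 23.5%.

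Levels between genes were compared per kb of the longest protein-coding transcript. In wild-type the highest was Plk1, at 849 normalized counts per kb, followed by Top2a (614), Smc4 (564) and Cenpa (505). The lowest were Kif15 (56.6), Aspm (52.4) and Cdc25c (48.8). In the knockout the order opened with Top2a (1597), Ube2c (1587), Plk1 (1467) and Mki67 (1352.8) and closed with Espl1 (137), Cdc25c (126) and Aspm (110). Most neighbours in these orders were not separable: the 3 libraries overlapped in all but 1 of 59 neighbouring pairs in each order. Those pairs were Plk1 over Top2a in wild-type and Aurkb over Birc5 in the knockout. The order of the 60 genes was largely the same in the 2 groups (Spearman's rho 0.91, a description). Pttg1 went from rank 16 to rank 57, Ncapd2 from 15 to 31, and Mybl2 from 45 to 32. The transcript used per gene is an assumption, since the isoform was not measured.

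The libraries of a group differed together over these genes. Relative to each gene's wild-type mean, the median over the 60 genes was 0.20, -0.17 and -0.06 on the log2 scale in wild-type libraries 1, 2 and 3, and 1.53, 1.73 and 1.31 in knockout libraries 1, 2 and 3. Knockout library 2 was the highest of its group for 51 of the 60 genes, against 5566 of all 17432 genes, and library 3 the lowest for 55, against 5111. In wild-type, library 1 was the highest for 44 genes, against 8039 of all genes, and library 2 the lowest for 33, against 5507. The 50 S phase genes, which code for replication proteins, had medians of 0.11, 0.00 and -0.09 across wild-type libraries and 1.43, 1.60 and 1.33 across knockout libraries, with the same order of knockout libraries. General epithelial markers had another order, with medians of 1.31, 0.97 and 1.56 in knockout libraries 1, 2 and 3. Knockout library 2 was the lowest of its group for 6 of these 7 markers and library 3 the highest for 6.

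**Figure D4:**
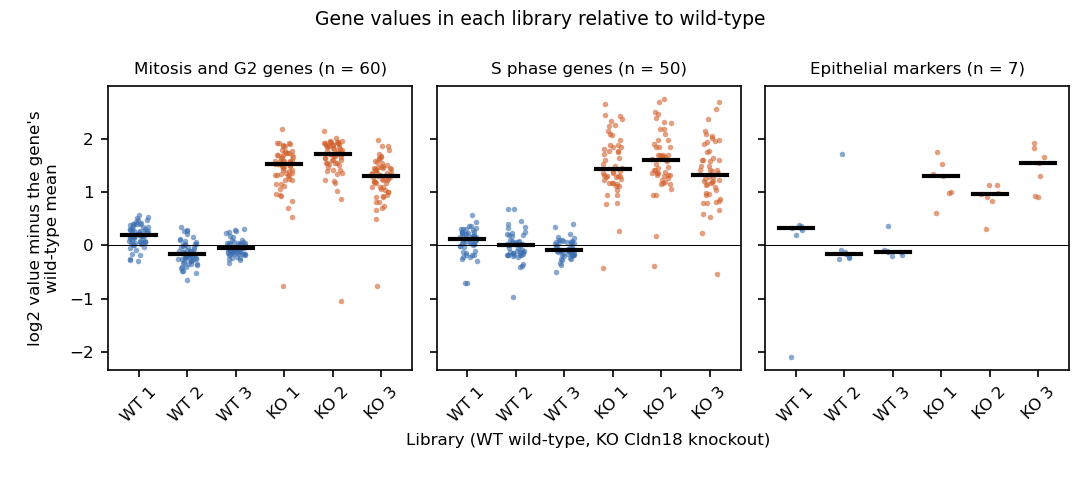
log2 values relative to each gene's wild-type mean (y axis) in the 6 libraries (x axis) for the mitosis and G2 genes, S phase genes and epithelial markers, with 1 point a gene and a bar at the median. Knockout library 2 has the highest bar for the mitosis and G2 genes (1.73) and the S phase genes (1.60) and the lowest of the knockout bars for the epithelial markers (0.97).

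Several lists of cell type markers moved mostly in 1 direction between the groups, and others were split. Among all genes tested, 23.3% were called higher and 21.5% lower. Of 14 parietal cell markers, 13 were lower, and their summed level was 518223 to 674435 normalized counts across wild-type libraries and 45826 to 52021 across knockout libraries. Of 6 tested chief cell markers, 5 were lower, with sums of 1812903 to 3011520 and 42310 to 75185. General epithelial markers were higher in 6 of 7, with a median log2 difference of 1.29 and sums of 97342 to 138305 and 215183 to 332358. Cldn7, the other of the 7, was not called and had 147, 2089 and 819 in wild-type against 2133, 1396 and 2399 in knockout libraries. Of 6 neck markers, 4 were higher, 1 not called and 1, Muc6, lower, with a median log2 difference of 2.47 and sums of 76527 to 98954 and 89432 to 186758. Of 7 pit cell markers, 1 was higher, 3 lower and 3 not called, with a median of -0.62 and sums of 883110 to 1497191 and 337490 to 584509. The pit marker called higher was Krt20 (log2 difference 4.74), and Psca fell most (-2.84). Endothelial markers were lower in 6 of 7, with sums of 4102 to 6716 and 1735 to 2287. Of 10 fibroblast and muscle markers, 3 were higher and 2 lower, with sums of 30413 to 48777 and 33945 to 56534. The part of these shifts in the rise of the mitosis and G2 genes was not tested.

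Leukocytes also divide. Of 16 listed leukocyte markers, 8 passed the filter and 3 were higher, with summed levels of 1700 to 2297 normalized counts across wild-type libraries and 3021 to 6027 across knockout libraries. The share of all genes tested called higher was 23.3%. Lyz2, a macrophage lysozyme, had 808, 682 and 478 in wild-type against 2034, 1601 and 3415 in knockout libraries. Lyz2 and Emr1, another of the listed markers, were both called higher. Ptprc, the pan-leukocyte CD45, had 175, 147 and 137 in wild-type against 356, 272 and 361 in knockout libraries. Cd8a, a marker of cytotoxic T cells, had 0, 11.1 and 1.94 in wild-type against 17, 4.43 and 0 in knockout libraries and stood near 0 in all 6 libraries. The part of leukocytes in the rise was not tested. Erythroid and platelet markers were lower in 5 of 6 tested.

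Of 122 mitosis genes tested outside the 60, 83 were higher, 1 lower and 38 not called, with a median log2 difference of 0.98. Shares over all genes tested were 23.3% higher and 21.5% lower. Other kinetochore and centromere genes were close to the 60, with 34 of 36 higher, none lower and a median of 1.39. Trip13, an ATPase that disassembles the checkpoint complex, had 143, 96.3 and 78.7 in wild-type against 607, 689 and 575 in knockout libraries (log2 difference 2.59 ± 0.25 SE). Cenph, of the inner kinetochore, had 108, 40.8 and 48.6 in wild-type against 340.0, 417 and 260.5 in knockout libraries (log2 difference 2.46 ± 0.37). Other spindle and cytokinesis genes were higher in 23 of 36, with a median of 1.15, led by Sapcd2 (2.10 ± 0.19) and Gtse1 (2.08 ± 0.17). Other entry and kinase genes were higher in 13 of 18 tested, with a median of 1.02, led by Nek2 (1.92 ± 0.15) and Pbk (1.85 ± 0.17).

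The APC/C and cohesin lists had smaller medians. For their counts, the shares over all genes tested were 23.3% higher and 21.5% lower. APC/C genes were higher in 6 of 17, lower in 1 and not called in 10, with a median log2 difference of 0.30. Fbxo5, which codes for EMI1, an inhibitor of the APC/C before mitosis, had 301, 175 and 211 in wild-type against 987, 1062 and 829 in knockout libraries (log2 difference 2.09 ± 0.22 SE, limma adjusted p = 3.89e-05). Anapc13, a small structural subunit, was lower (log2 difference -1.08 ± 0.19, adjusted p = 0.00104). Genes of cohesin and the other condensin were higher in 7 of 15 and not called in 8, with a median of 0.42. Esco2, which acetylates cohesin in S phase, had 354, 235 and 343 in wild-type against 1422, 2227 and 1551 in knockout libraries (log2 difference 2.47 ± 0.22). Ncapg2, particular to condensin II, rose by 1.83 ± 0.18. No test of the difference between these lists was made.

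S phase genes lay close to the 60 in size, with 48 of 50 higher, 1 lower and a median log2 difference of 1.45. Again, 23.3% of all genes tested were called higher and 21.5% lower. Uhrf1, which carries DNA methylation through replication, rose by 2.64 ± 0.16 (SE) on the log2 scale, and Gins4 was not called (0.23 ± 0.14). Gmnn, which codes for geminin, the inhibitor of the licensing factor CDT1 and like securin a target of the APC/C, was the gene called lower. It had 1406, 1020.0 and 1007 in wild-type against 843, 859.9 and 781 in knockout libraries (log2 difference -0.45 ± 0.16, limma adjusted p = 0.0461). That call was lost in 7 alternatives: with no filter, with a replicate block, without each knockout replicate, without wild-type replicate 1 and in the authors' deposited table (adjusted p = 0.0632 to 0.219). The ratio of Gmnn to Cdt1 was 6.42, 5.66 and 4.67 across wild-type libraries and 0.784, 0.750 and 0.734 across knockout libraries. The wild-type ratios were all above the knockout ratios. The pair of Pttg1 and Gmnn was set side by side after the values were seen.

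**Figure D5:**
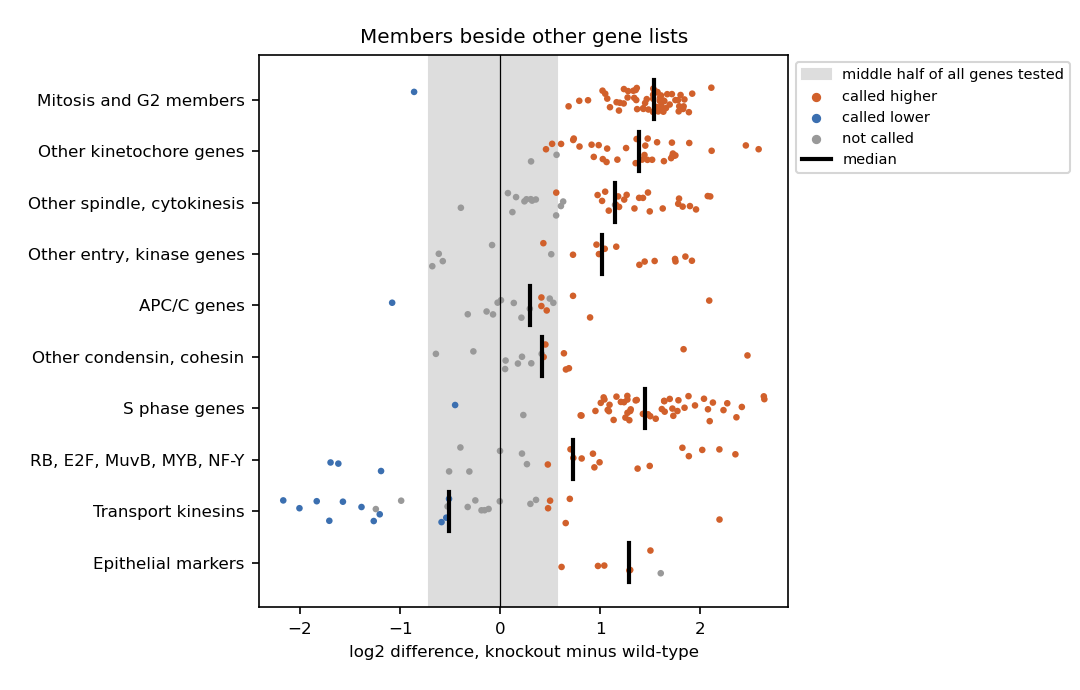
log2 difference (x axis, knockout minus wild-type) of each gene in 10 lists (rows), coloured by limma call, with a bar at each list's median and the middle 50 percent of all genes tested in grey (-0.71 to 0.57). The medians of the mitosis and G2 genes (1.54), other kinetochore genes (1.39) and S phase genes (1.45) lie right of the grey band. Right of it too are those of other spindle and cytokinesis genes (1.15) and other entry and kinase genes (1.02). So are those of the RB, E2F, MuvB, MYB and NF-Y genes (0.73) and the epithelial markers (1.29). The medians of APC/C genes (0.30), other condensin and cohesin genes (0.42) and transport kinesins (-0.51) lie inside it.

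Exons of 18 of the 60 genes share bases with another annotated gene, 14 of them with a gene on the opposite strand, such as Ccna2 with Exosc9, Nusap1 with Oip5, Kif20a with Cdc23 and Ube2c with Tnnc2. No source used here says whether the counting used strand, so reads in those shared bases cannot be assigned to either gene.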

How the data were processed

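RNA of laser-captured neck mucosa was measured in 3 wild-type and 3 Cldn18 knockout libraries. The submitters' processing notes name STAR, featureCounts, DESeq and mm10; the sources used here give no roles, annotation or strandedness. The authors deposited 38720 rows of normalized counts (a signal at or above 0), 27 of them with a date where the symbol should be. Dividing each library by its smallest step gave whole reads for 100% of values (tolerance 0.05 reads). The authors' deposited table of their own comparison, which lists each fold change as a ratio and its p-values, served as an alternative. GENCODE vM21 held 92.0% of the row symbols.

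The main test was limma 3.58.1 (lmFit, trended eBayes, under R 4.3.3), applied two-sided to log2(normalized count + 1). Genes needed 10 or more in 3 or more libraries, which left 17432, and Benjamini-Hochberg adjusted p under 0.05 was a call. This log2 scale understates changes of low genes. On the recovered reads, edgeR 4.0.16 called 4323 genes higher and 3724 lower, and DESeq2 1.42.0 called 3880 and 4019. The 60 genes and all lists were chosen with earlier results of these data known. Genes outside the 60 were taken from the 2 largest rises and falls per list, except where stated. The rule covered called genes whose higher group averaged 100 or more. Not every gene that it picks is described. Ptprc, Cd8a, Cldn7 and Gins4 were named after their values were seen. Alternatives changed the pseudocount, filter, scaling, test, variance model and libraries. With 3 libraries a group, precision rests on the spread between libraries more than on depth. All files carry the same date in their titles, so no batch could be separated.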

Additional observations from a re-analysis of the deposited data

How the results depend on the processing

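All 60 genes kept their direction in each of the 18 alternatives. The number of the 60 called higher was 59 and the number called lower 1 in each, except without wild-type libraries 2 and 3, where 57 were higher and 1 lower and the calls of Aspm and Cenpf were lost. Over the 31 genes of the 60 followed singly, 556 of 558 values kept their call and none reversed. Leaving out each replicate gave 59 higher genes of the 60 each time, 74 to 82 of the other mitosis genes against 83, and 3138 to 4379 genes higher and 2969 to 3899 lower over all genes against 4053 and 3743. Over all genes, 2488 were lower without wild-type libraries 2 and 3, 2024 were lower in the authors' deposited table, and 1957 were higher with a log2 difference of at least 1; the first and the last were added after the values were seen. Upper quartile scaling moved the median of all genes by -0.14 and gave 3456 genes higher and 4504 lower; quantile normalization moved it by 0.12 and gave 4244 and 3543. Relative to the median of all genes the median of the 60 was 1.55 under the first and 1.41 under the second, and Pttg1 was lower under both (-0.85 and -0.87). A fit with the replicate number as a block called 3726 genes higher and 3626 lower, 59 and 1 of the 60, with an adjusted p of 0.00720 for Pttg1. Same-numbered libraries did not deviate together (correlations of -0.00, 0.02 and -0.17), so the numbers were not taken to pair the libraries.

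The limits are few libraries, an unknown number of animals behind them, unstranded or stranded counting not given, and bulk tissue in which cell types shift with genotype. The 60 genes had at least 46 reads per library, so depth limits them little. The promoter letters describe 50 genes and depend on the start chosen.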
